A study of Mus musculus with 42 samples.

Results

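The effect of a western diet on gene expression was described in mice that carried and expressed the NaKtide transgene, in the libraries labelled cerebellum. These are the 5 libraries of western diet NaKtide mice and the 5 libraries of control diet NaKtide mice, 10 of 42 in the series, and they were chosen by their labels. Per the labels, both groups had 12 weeks on their diet. The fat content was 42% in the western diet and 11% in the control diet. Carbohydrate made up 42.7% of the western diet and 62% of the control diet, and protein made up 15.2% of the western diet and 27.0% of the control diet. Both groups carried the transgene and had it induced with 300 mg/kg doxycycline in the chow, so what doxycycline or the transgene does in common to both diets does not enter the comparison. For the comparisons with other groups, 5 western diet and 5 control diet libraries without NaKtide shared the cerebellum label, and 6 western diet NaKtide and 5 control diet NaKtide libraries had the hippocampus label. The labels do not say whether mice without NaKtide received doxycycline, and the promoter or cell type that drives the transgene is not given in the sources used here, although the title of the series speaks of adipocytes. The design text deposited with the series speaks of liver and adipose depots instead of brain, so tissue and group were taken from each library's own labels. These labels do not say that each library is a separate animal, so the spread behind every p-value is that between libraries and may be technical.

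NaKtide is a peptide derived from the Na,K-ATPase, the pump that exports sodium and imports potassium across the cell membrane. The alpha subunit of the pump also binds the tyrosine kinase Src, and this complex can signal through reactive oxygen species. NaKtide binds Src and blocks this signalling. The cerebellum is made up mostly of small granule cells, with Purkinje cells as its output neurons and Bergmann glia as its specialised astrocytes.

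No gene was called as changed by the western diet. Of 16338 genes tested, 0 had a Benjamini-Hochberg adjusted p under 0.05 in edgeR's quasi-likelihood test (0% of genes), and the smallest adjusted p was 0.999. At an unadjusted p under 0.05 there were 396 genes (2.42%), 219 higher (1.34%) and 177 lower (1.08%) in western diet NaKtide libraries. DESeq2 called 1 gene, Hoxc4, and limma voom with quality weights called 0. Hoxc4 was at 12.5 CPM in western diet NaKtide replicate 2 and at 0 CPM in all other libraries compared. The median log2 fold change over all genes was 0.01. The 95% interval of the fold change, per gene and not adjusted, lay within 2-fold in either direction for 12347 genes (75.6%), so for the other genes a 2-fold difference was not excluded by these libraries. Library totals were 6504026 to 9013464 counts in western diet NaKtide and 5832016 to 8220112 counts in control diet NaKtide libraries. A library held 15116 to 16198 genes with 10 counts or more.

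Of 7 transcripts that define cerebellar neurons, each had its highest level in the same library, and the most specific were near 0 in several others. Gabra6, the GABA-A receptor subunit of cerebellar granule cells, was at 0, 1.00, 2.88, 0.123 and 0.139 CPM (counts scaled to library size) in western diet NaKtide replicates 1 to 5. In control diet NaKtide it was at 0 CPM in replicates 1 to 4 and at 121.6 CPM in replicate 5. Pcp2, a Purkinje cell protein that binds G proteins, was at 0.111, 5.13, 17.3, 0.860 and 0.277 CPM in western diet NaKtide and at 0.941, 0, 0.547, 0 and 129.3 CPM in control diet NaKtide libraries. Control diet NaKtide replicate 5 was the only library of the 10 that held Gabra6 and Pcp2 at more than 20 CPM. Control diet NaKtide replicate 5 was also the highest for Cbln3, which encodes a synapse-organising protein, at 444.9 CPM, against at most 8.32 CPM in western diet NaKtide and at most 0.961 CPM in the other control diet NaKtide libraries. Car8, a carbonic anhydrase-related gene of Purkinje cells, reached 349.3 CPM there, against at most 14.4 CPM in western diet NaKtide and 10.7 CPM in the other control diet NaKtide libraries. The other 3 transcripts were present in every library. Calb1, a calcium-binding protein gene that other neurons also express, was at 46.5 to 206.1 CPM in western diet NaKtide libraries, and at 86.4 to 167.9 CPM in control diet NaKtide replicates 1 to 4 and 395.8 CPM in replicate 5. Cbln1, related to Cbln3, was at 9.86 to 46.9 CPM in western diet NaKtide libraries, and at 7.52 to 45.9 CPM in control diet NaKtide replicates 1 to 4 and 316.1 CPM in replicate 5. Zic1, a transcription factor gene, was at 4.30 to 50.3 CPM in western diet NaKtide libraries, and at 2.24 to 25.2 CPM in control diet NaKtide replicates 1 to 4 and 165.2 CPM in replicate 5. The 12 Purkinje cell genes, some of which other neurons and astrocytes express, summed to 1948 to 2361 CPM in western diet NaKtide libraries, and to 1813 to 2600 CPM in control diet NaKtide replicates 1 to 4 and 3668 CPM in replicate 5. The word cerebellum is used here only for the label.

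**Figure D1:**
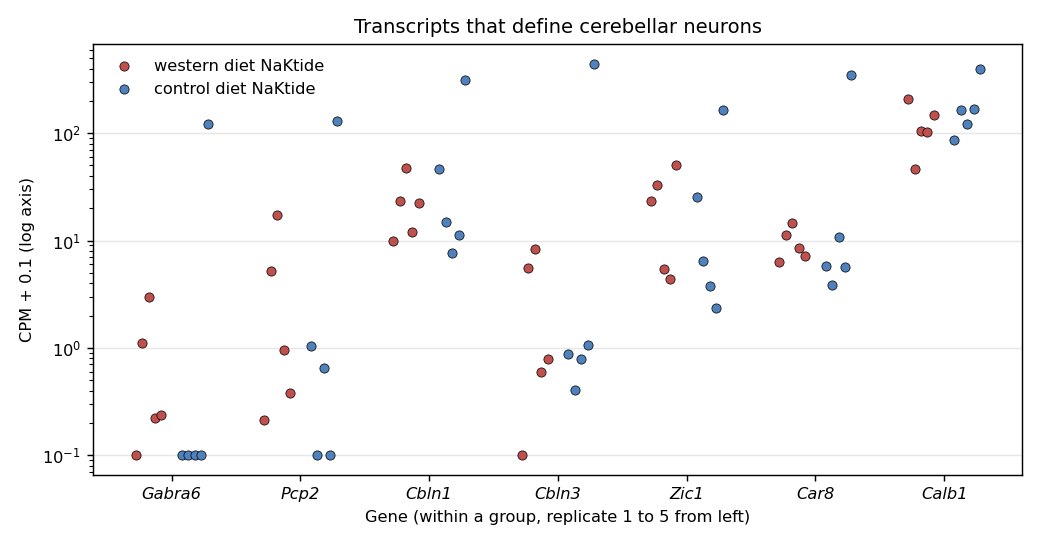
Level of 7 transcripts that define cerebellar neurons, in CPM plus 0.1 on a log axis, for each of the 5 western diet NaKtide libraries (red, left) and 5 control diet NaKtide libraries (blue, right), with replicates 1 to 5 from left to right. Each point is 1 library, and replicate 5 of the control diet NaKtide group is the highest for all 7 genes.

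Markers of other brain regions also differed between libraries of the same group. Western diet NaKtide replicate 2 held a summed 162.6 CPM of 10 hindbrain and brainstem genes, with Slc6a5, the glycine transporter of inhibitory hindbrain neurons, at 112.8 CPM. The other 4 libraries of its group held at most 2.88 CPM of this list and the control diet NaKtide libraries at most 5.69 CPM. Tph2, the serotonin-synthesising enzyme, was at 104.6 CPM in the same library and at 49.7 CPM in western diet NaKtide replicate 3. It was at most 3.93 CPM in the other western diet NaKtide and 2.51 CPM in the control diet NaKtide libraries. Hypothalamic genes summed to 442.2 CPM in western diet NaKtide replicate 3 and 189.7 CPM in replicate 5, and to 124.6 CPM in control diet NaKtide replicate 1. The range in the other 7 libraries was 27.1 to 43.5 CPM. Striatal genes summed to 5549 CPM in western diet NaKtide replicate 1 and 6148 CPM in control diet NaKtide replicate 2, and to at most 1981 CPM in the other western diet NaKtide and 1968 CPM in the other control diet NaKtide libraries. Control diet NaKtide replicate 1 had 84.8 CPM of Slc6a3, the dopamine transporter, against at most 11.8 CPM in western diet NaKtide and at most 0.481 CPM in control diet NaKtide replicates 2 to 5. The 14 oligodendrocyte and myelin genes summed to 7697 to 16748 CPM in western diet NaKtide libraries. In control diet NaKtide they summed to 9529, 8820 and 7303 CPM in replicates 1 to 3 but to 2211 and 2667 CPM in replicates 4 and 5.

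Western diet NaKtide replicate 5 stood apart in a second way. It had 38.2 CPM of Xist, the RNA that coats the inactive X chromosome of female cells, and the other 9 libraries had 0 CPM, while it also held Y-linked transcripts. Its 8.03 CPM of Kdm5d lay within the 5.60 to 8.86 CPM of the other western diet NaKtide libraries, and its 16.3 CPM of Eif2s3y lay above their 7.04 to 11.0 CPM. It was also closer to 2 libraries labelled hippocampus, control diet replicates 6 and 5, than to any of the other 9, with a mean chi-square per gene of 3.42 and 5.41. Outside the 10 libraries, only these 2 were compared in this way. The measure also rises with the counts of the libraries. The closest pair among the 10 libraries was western diet NaKtide replicate 1 with control diet NaKtide replicate 2, at 6.46. The source of this closeness was not tested. With both this library and control diet NaKtide replicate 5 left out, which was tried after seeing the data, edgeR again called 0 genes, with 314 at an unadjusted p under 0.05.

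**Figure D2:**
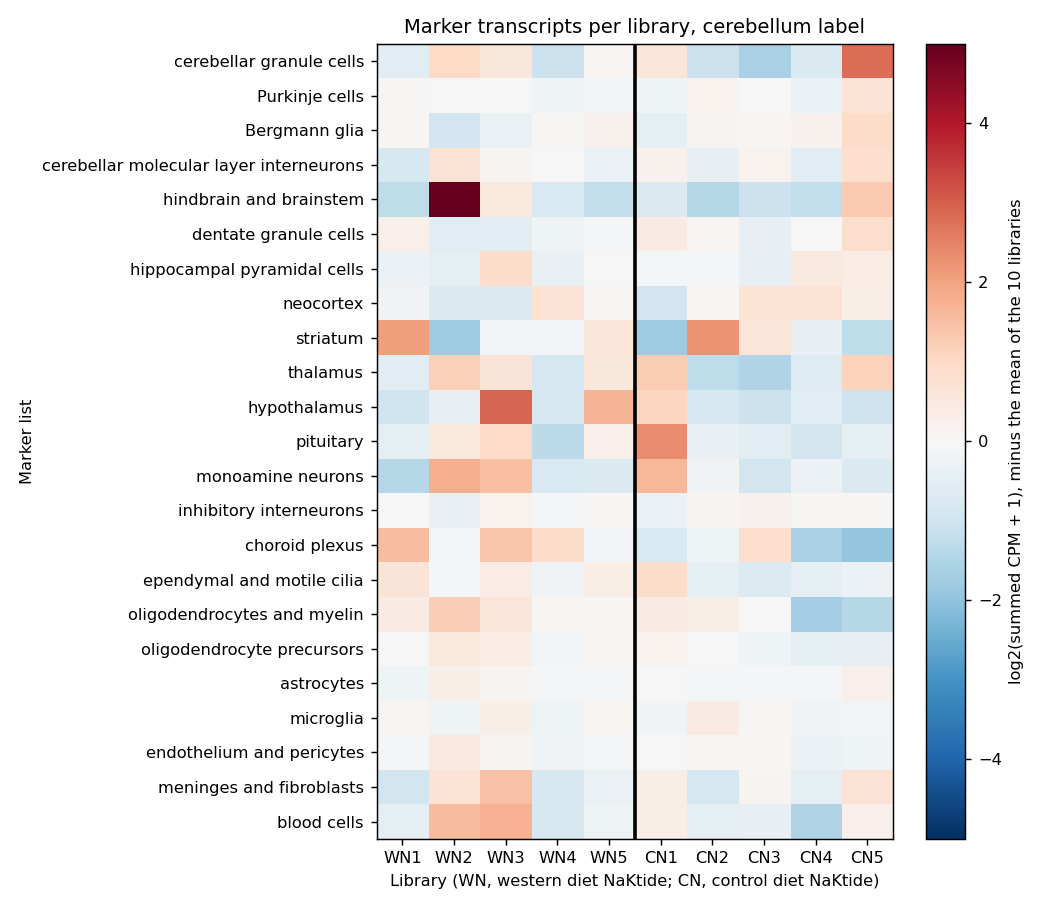
Summed CPM of 23 marker lists (rows) in the 5 western diet NaKtide (WN) and 5 control diet NaKtide (CN) libraries, as log2 of the sum plus 1 minus the mean of the 10 libraries. Single libraries stand out for hindbrain (WN2), hypothalamic (WN3), striatal (WN1 and CN2), pituitary (CN1) and cerebellar granule cell (CN5) transcripts, and low myelin transcripts mark CN4 and CN5.

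The spread of whole profiles was as large within a diet as between diets. The median distance between libraries, as the root mean square log2 difference over all genes tested, was 0.838 within western diet NaKtide, 0.712 within control diet NaKtide and 0.643 between the groups. Of the 10 libraries, the nearest neighbour within these 10 was a library of the other diet for 7. Total counts, genes with at least 10 counts and the mitochondrial share (6.73% ± 0.954 in western diet NaKtide and 6.37% ± 1.59 in control diet NaKtide libraries, SD, n = 5 each) gave p = 0.270, 0.262 and 0.690 in exact two-sided permutation tests.

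Among genes with a mean of at least 1 CPM and a usual symbol, the 15 with the smallest p comprised 4 with a higher and 11 with a lower level in western diet NaKtide libraries, and the adjusted p in edgeR was 0.999 for each. In 8 of them the groups did not overlap, 2 higher and 6 lower. Over all genes tested, the 5 libraries of each group did not overlap for 26 genes higher (0.159%) and 42 genes lower (0.257%) in western diet NaKtide. The 15 genes were chosen by their p in this same comparison, which favours groups that do not overlap. The 8 therefore cannot be set against these shares.

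The smallest p of these belonged to Otp, a homeodomain transcription factor of the developing hypothalamus (chromosome 13, 94875602 to 94885130, plus strand, GRCm38). Otp was at 0.886, 17.9, 7.04, 0.246 and 5.68 CPM in western diet NaKtide and at 0.627, 0, 0.137, 0 and 0.334 CPM in control diet NaKtide libraries. It was high in replicates 2, 3 and 5 of the western diet NaKtide group, and the groups overlapped. Its log2 fold change was 4.71 (SE 1.23, 95% interval 2.13 to 7.29, unadjusted p = 0.00112 in edgeR). Otp is itself on the list of hypothalamic genes. Replicates 3 and 5 also had the highest sums of that list, and replicate 2 had the highest brainstem sum. The part of these tissue markers in the Otp values was not tested. A smaller p over all genes tested belonged to the pseudogene Pisd-ps1, left out by the symbol rule, with a log2 fold change of -1.23 and an unadjusted p of 0.000997 in edgeR.

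A pair of Y-linked genes followed. Kdm5d, a histone demethylase gene (chromosome Y, 897788 to 956786, plus strand), was at 8.86, 7.50, 5.60, 7.86 and 8.03 CPM in western diet NaKtide and at 13.5, 11.5, 10.7, 12.0 and 11.4 CPM in control diet NaKtide libraries. All 5 western diet NaKtide libraries lay below all 5 control diet NaKtide libraries, with a log2 fold change of -0.64 (SE 0.17, 95% interval -0.998 to -0.27, unadjusted p = 0.00160 in edgeR). Eif2s3y, which encodes a subunit of a translation initiation factor, was at 11.0, 10.3, 7.04, 9.09 and 16.3 CPM in western diet NaKtide and at 14.6, 15.98, 21.3, 21.9 and 18.1 CPM in control diet NaKtide libraries. Its log2 fold change was -0.77 (SE 0.21, unadjusted p = 0.00150 in edgeR), and the groups overlapped through western diet NaKtide replicate 5. The other Y-linked genes tested had log2 fold changes of -0.26 for Ddx3y (unadjusted p = 0.327) and -0.23 for Uty (unadjusted p = 0.573).

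Among the genes with higher values, Apold1, a gene of vascular endothelium, averaged 4.63 ± 1.09 CPM in western diet NaKtide and 2.27 ± 0.684 CPM in control diet NaKtide libraries (SD, n = 5 each). The ranges were 3.04 to 5.54 CPM in western diet NaKtide and 1.64 to 3.34 CPM in control diet NaKtide libraries, so the groups overlapped in 1 library each. Eps8l1, which encodes a protein related to the actin regulator EPS8, was at 4.98, 8.25, 10.9, 6.02 and 4.85 CPM in western diet NaKtide and at 3.14, 1.06, 2.87, 3.20 and 4.57 CPM in control diet NaKtide libraries. The lowest western diet NaKtide value stood just above the highest control diet NaKtide value, and the log2 fold change was 1.22 (SE 0.36). Tlr2, the receptor of the innate immune system for bacterial lipoproteins, was at 1.11, 1.63, 3.20, 1.47 and 1.52 CPM in western diet NaKtide and at 0.941, 0.754, 0.547, 0.641 and 0.446 CPM in control diet NaKtide libraries. The groups did not overlap, the log2 fold change was 1.40 (SE 0.43, 95% interval 0.50 to 2.30), and replicate 3 of the western diet NaKtide group stood above the rest. At these levels a library held few reads of Tlr2, between 4 and 20.

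Genes with lower values in western diet NaKtide differed mostly by less than 2-fold. Sptbn4 encodes the beta-IV spectrin of the axon initial segment and the nodes of Ranvier (chromosome 7, 27356383 to 27447686, minus strand). It was at 143.7, 134.6, 138.0, 156.6 and 161.1 CPM in western diet NaKtide and at 201.6, 181.2, 182.0, 197.0 and 197.6 CPM in control diet NaKtide libraries. The groups did not overlap, and the log2 fold change was -0.39 (SE 0.12, 95% interval -0.64 to -0.13, unadjusted p = 0.00456 in edgeR). Fbxl18, an F-box protein gene of ubiquitin ligases, averaged 22.4 ± 2.99 CPM in western diet NaKtide and 29.0 ± 1.14 CPM in control diet NaKtide libraries, with a log2 fold change of -0.37. Obsl1, a cytoskeletal adaptor gene, averaged 10.6 ± 0.657 CPM in western diet NaKtide and 14.96 ± 1.91 CPM in control diet NaKtide libraries, with a log2 fold change of -0.49. Neither gene overlapped between the groups. The same held for Ybx2, a germ cell RNA-binding protein gene, and L3mbtl1, a chromatin-compacting protein gene, both at under 5 CPM in every library and with log2 fold changes of -0.998 and -1.01.

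Rreb1, a zinc finger transcription factor gene, had the largest difference among the genes with lower values. It was at 7.31, 6.501, 4.64, 6.14 and 10.8 CPM in western diet NaKtide and at 47.5, 7.99, 10.9, 33.2 and 25.1 CPM in control diet NaKtide libraries. Replicates 1, 4 and 5 of the control diet NaKtide group were high and replicate 2 overlapped with the western diet NaKtide group. The log2 fold change was -1.81 (SE 0.54, 95% interval -2.94 to -0.68). Zgpat, Farp1, which encodes a synaptic organiser that activates small GTPases, and Abca8b, a transporter gene, had log2 fold changes of -0.46, -0.47 and -0.45, and their groups overlapped.

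**Figure D3:**
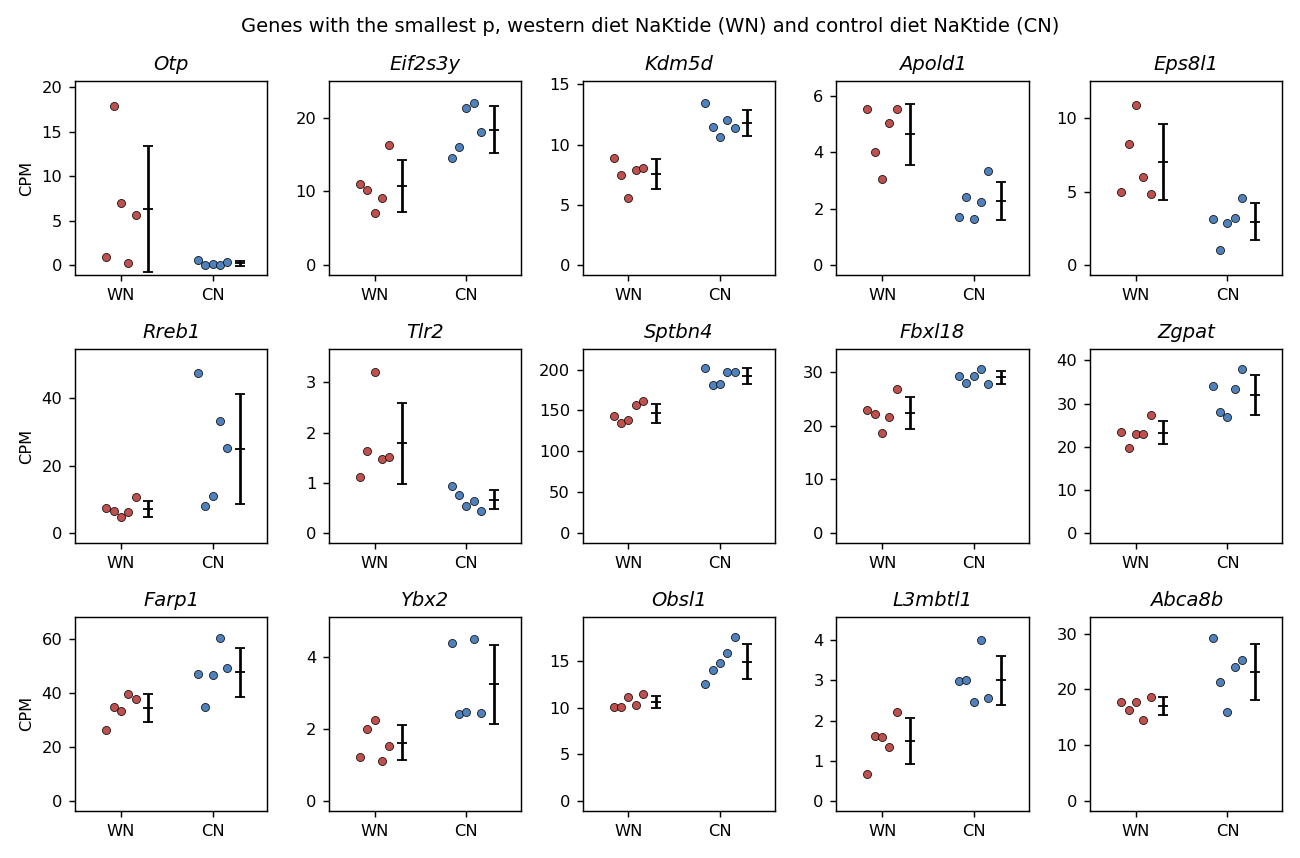
CPM of the 15 named genes with the smallest p, for each western diet NaKtide (WN, red) and control diet NaKtide (CN, blue) library. Points are libraries, bars are the mean and SD of 5 libraries, and the 2 groups do not overlap for Kdm5d, Eps8l1, Tlr2, Sptbn4, Fbxl18, Ybx2, Obsl1 and L3mbtl1.

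Genes of the pump from which NaKtide derives, its regulators and Src signalling were not called. Of the 24 tested genes of this list, 0 had an unadjusted p under 0.05, 14 had a log2 fold change above 0 and 21 had a 95% interval within 2-fold, with a median log2 fold change of 0.03. Atp1b1, a beta subunit, which brings the pump to the membrane, was at 837.5, 1110, 406.3, 1178 and 972.1 CPM in western diet NaKtide and at 740.5, 901.4, 787.5, 1042 and 937.1 CPM in control diet NaKtide libraries. Replicate 3 of the western diet NaKtide group was the lowest and the groups overlapped, with a log2 fold change of 0.03 (95% interval -0.52 to 0.59). The other beta subunits had log2 fold changes of 0.13 for Atp1b2 (95% interval -0.49 to 0.74) and 0.24 for Atp1b3 (-0.15 to 0.63). Src averaged 82.9 ± 16.8 CPM in western diet NaKtide and 94.4 ± 16.4 CPM in control diet NaKtide libraries (SD, n = 5 each), with a log2 fold change of -0.19 (95% interval -0.57 to 0.19). The intervals of the 3 beta subunits and of Src exclude a 2-fold difference in either direction. Atp1a4, a sperm isoform gene, was below the filter on low counts and was not tested.

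Across 45 gene lists, 735 distinct members were tested and edgeR called 0. At an unadjusted p under 0.05 there were 34 (4.63%), against 2.42% of all genes. The lists were chosen with earlier results of these data known, and members of a list are not independent of each other. The difference between these shares was therefore not tested and is no evidence about the lists. Most of the 34 were in marker lists, with 6 of oligodendrocytes and myelin, 4 of the hypothalamus and 3 of the choroid plexus. Monoamine neurons had 5 higher and 1 lower. Among pathway lists, cholesterol synthesis and transport had the most, 4. DESeq2 called 1 member, Hoxc4, held only by western diet NaKtide replicate 2 among the libraries compared. The list members named below are those with the smallest p of their list or stand for a role in it, and were chosen after their values were seen. Of the members of 20 pathway lists, 433 of 519 (83.4%) had a 95% interval within 2-fold, against 59 of 234 (25.2%) members of 25 marker lists of cells and regions.

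Genes of cholesterol synthesis and transport had a median log2 fold change of 0.25, with 23 of 27 above 0, against 52.8% of all genes. None was called, and 4 had an unadjusted p under 0.05. The summed level of the list was highest in western diet NaKtide replicate 3, at 5270 CPM. It was 3374 to 4065 CPM in the other western diet NaKtide libraries and 3248 to 4061 CPM in control diet NaKtide libraries. Insig1, which holds the regulator of cholesterol synthesis in the endoplasmic reticulum, was at 85.7, 122.6, 75.96, 97.5 and 73.7 CPM in western diet NaKtide and at 80.4, 59.7, 54.0, 47.6 and 67.1 CPM in control diet NaKtide libraries. The groups overlapped through control diet NaKtide replicate 1, and the log2 fold change was 0.56 (SE 0.19, unadjusted p = 0.00807 in edgeR). Idi1, an enzyme of isoprenoid synthesis, Cyp51 and Fdft1, enzymes of sterol synthesis, had log2 fold changes of 0.54, 0.46 and 0.42. Srebf2, the transcription factor of the pathway, had -0.03. Fatty acid synthesis, elongation and desaturation genes had a median of 0.19 (13 of 16 above 0), with Elovl7, a fatty acid elongase gene, at a log2 fold change of 0.88, and mitochondrial fatty acid oxidation genes had a median of 0.25 (18 of 19 above 0).

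All 14 oligodendrocyte and myelin genes had log2 fold changes above 0, with a median of 0.86. None was called, and 6 had an unadjusted p under 0.05. Ugt8a, which makes the myelin lipid galactosylceramide, was at 63.9, 94.0, 29.6, 52.8 and 58.2 CPM in western diet NaKtide and at 32.6, 43.3, 36.1, 12.7 and 18.9 CPM in control diet NaKtide libraries. Replicates 4 and 5 of the control diet NaKtide group were low and the groups overlapped, with a log2 fold change of 1.06 (SE 0.41, unadjusted p = 0.0183 in edgeR). The 8 genes of a separate list of oligodendrocyte precursors had a median of 0.17, with 5 above 0 and 3 below. The highest of these 8 was Sox10, a transcription factor gene of the oligodendrocyte lineage, with a log2 fold change of 0.79. It was the 1 member with an unadjusted p under 0.05. The 3 below 0 were Pdgfra (-0.09), Cspg4 (-0.23) and Gpr17 (-0.23). In these bulk libraries, fewer cells of a type and less RNA per cell cannot be told apart, and the part of tissue content in the lipid gene values was not tested.

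Genes of protein synthesis and energy metabolism had small log2 fold changes, mostly above 0. Those of the ribosomal protein, nuclear-encoded respiratory chain and proteasome lists rested largely on western diet NaKtide replicate 3. All 80 cytosolic ribosomal protein genes lay above 0 with a median of 0.19, none had an unadjusted p under 0.05, and 79 had a 95% interval within 2-fold. Their summed level was 35444 CPM in western diet NaKtide replicate 3. It was 13195 to 19995 CPM in the other 4 western diet NaKtide libraries, and 13005 to 21988 CPM in control diet NaKtide libraries. Without that library, 8 of the 80 lay above 0, with a median of -0.10. Of 68 nuclear-encoded respiratory chain genes, 65 lay above 0 (median 0.15, 2 with an unadjusted p under 0.05), with Atp5c1, the gamma subunit of ATP synthase, at 0.29. Without the same library, 33 of the 68 lay above 0. Of 13 mitochondrially encoded genes, 10 lay above 0 and 3 below, with a median of 0.11. Of 31 proteasome genes, 30 lay above 0 with a median of 0.12, and 21 did without that library, with a median of 0.03. The 33 antioxidant and NRF2 target genes had a median of 0.15, with 30 above 0. Their summed level was also highest in western diet NaKtide replicate 3, at 5868 CPM. It was 3053 to 4673 CPM in the other western diet NaKtide libraries and 2934 to 4357 CPM in control diet NaKtide libraries. Prdx1, a peroxidase gene, was at 0.43, and 1 member had an unadjusted p under 0.05.

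Synaptic transmission and plasticity genes had the lowest median of the pathway lists, -0.26, with 1 of 26 above 0 and 0 at an unadjusted p under 0.05. Shank1, a scaffold gene of excitatory synapses, was at 159.1, 147.3, 267.5, 327.1 and 306.9 CPM in western diet NaKtide and at 293.5, 228.1, 346.4, 439.1 and 314.7 CPM in control diet NaKtide libraries. Replicates 1 and 2 of the western diet NaKtide group were low, the groups overlapped, and the log2 fold change was -0.43 (SE 0.23). Without western diet NaKtide replicate 2, the median of the list was -0.09. Immediate-early genes, which neurons transcribe after activity, had the highest median, 0.39, with 16 of 18 above 0, 1 at an unadjusted p under 0.05 and 4 with an interval within 2-fold. Nr4a1 was at 104.4, 12.6, 28.3, 159.4 and 75.8 CPM in western diet NaKtide and at 13.9, 30.4, 39.7, 51.4 and 41.8 CPM in control diet NaKtide libraries. It was high in replicates 1, 4 and 5 and low in replicate 2 of the western diet NaKtide group, and its log2 fold change was 1.102 (95% interval -0.03 to 2.23). Without western diet NaKtide replicate 4, the median of the immediate-early list was 0.10.

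No immune gene was called. The 20 microglial genes had a median of 0.02, with 11 above 0, 0 at an unadjusted p under 0.05 and 19 with an interval within 2-fold. The 9 tested genes of NF-kB, cytokines and the inflammasome had a median of 0.08. Of 20 interferon response and antigen presentation genes, 14 lay above 0 (median 0.19, and -0.02 without western diet NaKtide replicate 3), and Cd74, the invariant chain of MHC class II, and Oasl2, an interferon-induced gene, had log2 fold changes of 1.25 and 0.97. Cd74 was at 15.3 and 20.2 CPM in western diet NaKtide replicates 2 and 3, and at 1.97 to 4.16 CPM in the other 3 libraries of that group, against 3.14 to 5.02 CPM in control diet NaKtide libraries. The blood cell genes summed to 2948 and 3235 CPM in the same 2 libraries, to 554.2 to 823.4 CPM in the other western diet NaKtide libraries and to 344.6 to 1238 CPM in control diet NaKtide libraries. The part of blood in the Cd74 values was not tested.

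Medians of the other pathway lists were -0.11 for the circadian clock (7 of 19 above 0), -0.11 for GABA-A receptor subunits (3 of 12), -0.04 for voltage-gated potassium channels (9 of 18), -0.001 for chaperones (12 of 24), 0.01 for insulin and leptin signalling (12 of 22), 0.01 for mitochondrial apoptosis (10 of 18) and 0.07 for amyloid processing and Alzheimer disease-related genes (16 of 22). None of these 7 lists had a member at an unadjusted p under 0.05. Astrocyte genes had a median of 0.01 (6 of 12 above 0), and endothelial and pericyte genes 0.11 (13 of 14 above 0), all 14 with an interval within 2-fold. Lists of other neurons spread further. Medians were 2.30 for the 9 tested hypothalamic genes and 1.34 for the 11 tested monoamine neuron genes. They were -0.61 for the 13 tested cerebellar granule cell genes and -0.59 for the 12 Purkinje cell genes. The monoamine genes went both ways, 8 above 0 and 3 below. Tph2 (5.09) and Slc6a4 (6.15) were highest in western diet NaKtide replicates 2 and 3. Th (-0.72) and Slc6a3 (-2.31) were highest in control diet NaKtide replicate 1. The 11 tested choroid plexus genes had a median of 1.09, with 10 above 0 and 3 at an unadjusted p under 0.05. These 3, Prlr, Kcnj13 and Slc4a5, reached at most 5.92 CPM in western diet NaKtide and 3.29 CPM in control diet NaKtide libraries. The list summed to 478.1 to 1545 CPM in western diet NaKtide and 138.7 to 983.5 CPM in control diet NaKtide libraries. The 9 dentate granule cell genes had a median of -0.62, with 0 above 0, and of 0.15 without control diet NaKtide replicate 1. Without control diet NaKtide replicate 5, the median was 0.82 for the granule cell list and 0.09 for the Purkinje cell list, the log2 fold change of Cbln3 was 2.06 in place of -4.95, and that of Car8 was 0.54 in place of -3.00.

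**Figure D4:**
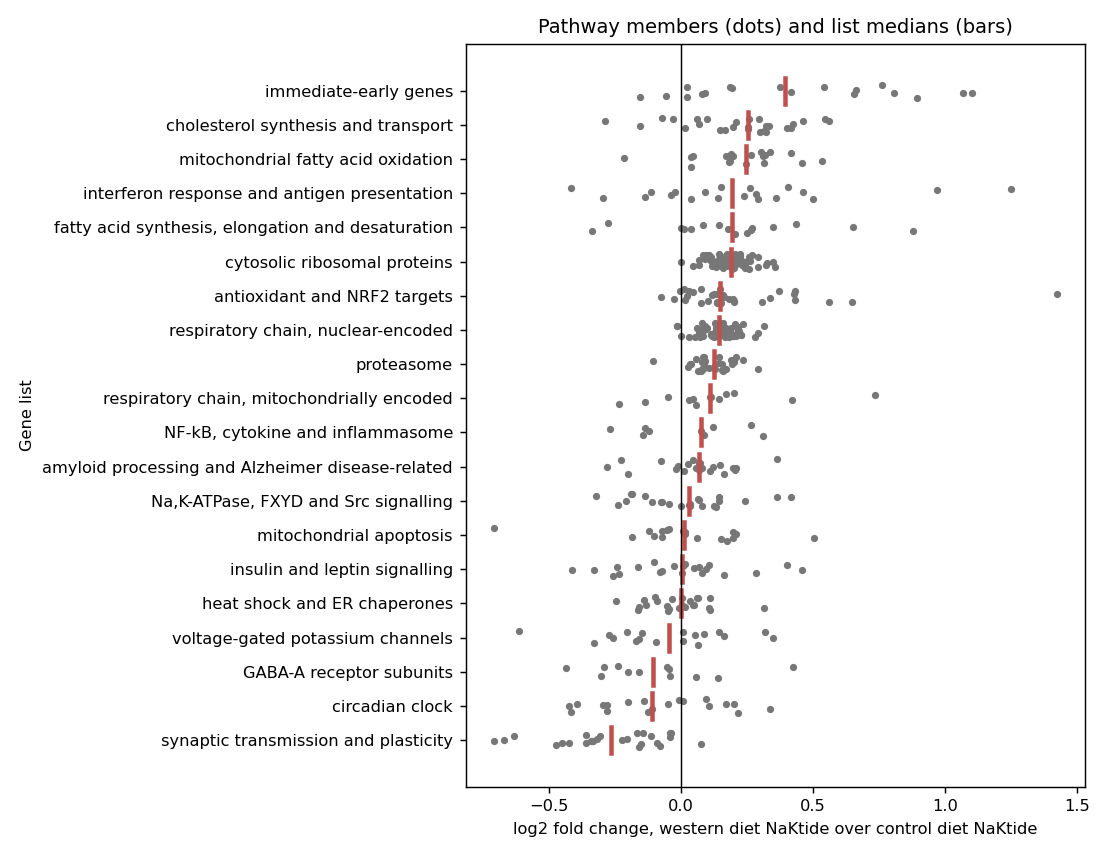
Log2 fold change, western diet NaKtide over control diet NaKtide, of each tested member of 20 pathway lists (dots) with the list median (red bars), ordered by the median. Medians run from -0.26 for synaptic transmission and plasticity to 0.39 for immediate-early genes, and no member was called.

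Whether the diet effect differed with and without NaKtide was tested as an interaction within the cerebellum label. edgeR called 1 of 16338 genes (0.00612%), Capn11, a calpain protease gene known from testis (chromosome 17, 45630204 to 45659325, minus strand), and 2844 genes (17.4%) had an unadjusted p under 0.05. With NaKtide, Capn11 was at 0.775, 1.5, 1.599, 1.23 and 1.25 CPM on the western diet and at 0.470, 0.452, 1.37, 1.92 and 0.669 CPM on the control diet. Without NaKtide it was at 0.583, 0.725, 0.176, 0.567 and 0 CPM on the western diet and at 14.7, 10.8, 12.9, 11.1 and 9.96 CPM on the control diet. The control diet group without NaKtide was the only one of the 4 that stood apart. The difference of the log2 fold changes was 5.16 (SE 0.64, 95% interval 3.82 to 6.51, adjusted p = 0.00218 in edgeR).

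The next genes by p were not called, each with an adjusted p of 0.251 in edgeR, and these calls depended on the tool and on 1 library. DESeq2 called 17 genes, among them all 4 of these, and edgeR called 5 genes without control diet replicate 5, with an adjusted p of 0.0389 for Pomc and 0.0402 for Pigb. Pomc, the precursor of pituitary and hypothalamic peptides, had a difference of 4.74. It was at 1.11 to 6.72 CPM in western diet NaKtide, 1.28 to 3.45 CPM in control diet NaKtide and 1.87 to 3.64 CPM in western diet libraries. Control diet libraries without NaKtide spread widely, at 102, 23.3, 7.26, 54.5 and 3.51 CPM in replicates 1 to 5. Replicate 5 of that group, the library left out above, held the lowest of these values. Pigb, an enzyme of membrane anchor synthesis, Sec16a, which organises the exit sites of the endoplasmic reticulum, and Zfp335, a zinc finger gene, had differences of -1.25, -0.82 and -1.48. For the diet without NaKtide, edgeR called 1 gene (0.00612%), and 3192 (19.5%) had an unadjusted p under 0.05. The comparisons with and without NaKtide share no libraries. Of the 15 genes named above, 10 had fold changes of opposite sign with and without NaKtide and 5 of the same sign. These 15 were chosen by their p with NaKtide. The share of opposite signs over all genes tested is not given here, so the 10 cannot be set against it. The values include a log2 fold change for Kdm5d of -0.64 with NaKtide and 0.49 without, for Zgpat of -0.46 with and 0.50 without, for Sptbn4 of -0.39 with and 0.33 without, for Eif2s3y of -0.77 with and -0.40 without, and for Tlr2 of 1.4 with and 0.09 without. None of the 15 passed the interaction test, with a smallest adjusted p of 0.251 in edgeR.

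**Figure D5:**
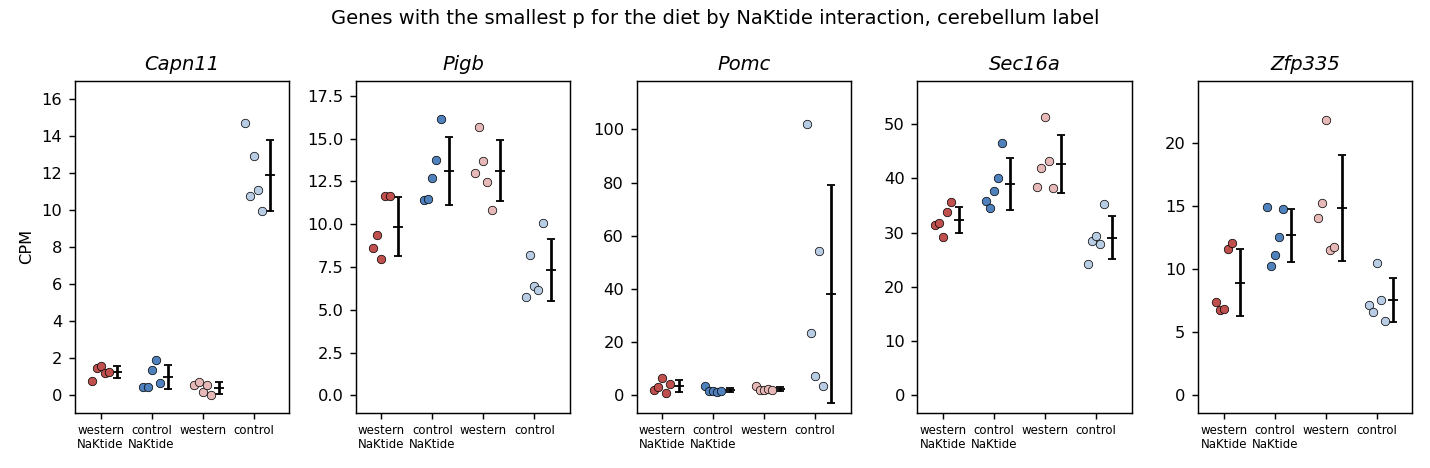
CPM of the 5 genes with the smallest interaction p in the 4 groups labelled cerebellum, western diet NaKtide, control diet NaKtide, western diet and control diet from left to right. Points are libraries, bars are the mean and SD of 5 libraries, and Capn11 is at 9.96 to 14.7 CPM in control diet libraries without NaKtide and at most 1.92 CPM in the other 3 groups.

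Whether the diet effect with NaKtide differed between the region labels was tested over all 42 libraries. edgeR called 0 of 17088 genes (0%), 1154 (6.75%) had an unadjusted p under 0.05, and DESeq2 called 5. The smallest p among genes with a usual symbol belonged to Mid1, a ubiquitin ligase gene of microtubules, at a difference of -4.07 (SE 0.91, adjusted p = 0.383 in edgeR). Mid1 averaged 62.0 ± 19.3 CPM in western diet NaKtide and 85.7 ± 43.8 CPM in control diet NaKtide libraries labelled cerebellum. In those labelled hippocampus it averaged 84.1 ± 66.7 CPM (SD, n = 6) in western diet NaKtide and 6.86 ± 1.04 CPM (SD, n = 5) in control diet NaKtide libraries. Rreb1 was next, with a difference of -3.01 and log2 fold changes of -1.81 in the cerebellum label alone and 1.2 in the hippocampus label. Nat10, Srrm2 and Leng8, genes of RNA modification and splicing, had differences of -0.70, -1.32 and -1.93. In the hippocampus label the same contrast of diets gave 8 called genes (0.0468%), with 1804 (10.6%) at an unadjusted p under 0.05.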

How the data were processed

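Libraries were grouped by their labels, which give no batch or date. Per the submitters' processing notes, Trimmomatic 0.38, HISAT2 2.1.0, DESeq2 1.20.0 and the build GRCm38 were used, and per the labels the mRNA kit was stranded. The sources used here name neither the read counter nor its annotation. The authors deposited raw counts of 54232 genes in 42 libraries. Other deposited tables were not used here.

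The 20 libraries labelled cerebellum were fitted as 4 groups (42 libraries as 8 groups for the region difference) with edgeR 4.0.16 in R 4.3.3 (TMM factors, filterByExpr, quasi-likelihood F test). A gene was called at a Benjamini-Hochberg adjusted p below 0.05. CPM used TMM-scaled library sizes, SEs were derived from the fold change and F, and intervals are 95%. Precision is limited by library totals and by 5 libraries per group. The fit was tested on counts simulated independently for each gene, without differences in tissue content between libraries. That test therefore cannot show how the fit behaves where such differences are present. Symbols and coordinates came from GENCODE annotation of GRCm38.

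The groups, members and lists were chosen with earlier results of these data known. The rule for named genes took called genes, then the next smallest p up to 15, among genes with a mean of at least 1 CPM and a symbol other than Gm plus digits, ending in Rik or a pseudogene name ending in -ps and a number. The named region and interaction genes are the 5 smallest p by the same symbol rule. Other library markers and list members were chosen after their values were seen. Some members of the lists are not reported here. Alternatives were DESeq2 size factors, DESeq2 1.42.0, no low-count filter, a replicate block, the compared groups only, limma 3.58.1 voom with quality weights, and leaving out each library. The median correlation of same-numbered libraries was 0.10, 2 of 5 being over 0.1, so replicate numbers were not taken as pairs.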

Additional observations from a re-analysis of the deposited data

Results flagged for a closer look

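Single libraries stood far from the other 4 of their group in 19 of 104 groups of values tested, of which 10 were in control diet NaKtide replicate 5. Chance flags about 1 in 20 such groups if values are normally distributed, which was not tested for these CPM values. The genes and lists are not independent of each other, and some were chosen after their values were seen. The count of flags therefore cannot be set against that rate. In control diet NaKtide replicate 5 the cerebellar transcripts Gabra6 (121.633 CPM), Pcp2 (129.326 CPM), Calb1 (395.782 CPM), Cbln1 (316.068 CPM), Cbln3 (444.948 CPM), Zic1 (165.225 CPM) and Car8 (349.292 CPM) stood apart. So did its summed CPM of the granule cell list (1890.61), the hindbrain list (5.686) and the astrocyte list (4310.12).

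In control diet NaKtide replicate 1 the sums of the hypothalamus (124.637 CPM), pituitary (28.376 CPM), monoamine neuron (258.837 CPM) and ependymal lists (74.782 CPM) stood apart, and in replicate 2 the striatum list (6147.7 CPM). In western diet NaKtide replicate 2 the hindbrain list stood apart (162.638 CPM). In replicate 3 the hippocampal pyramidal cell list (1367.74 CPM), the adipocyte list (29.264 CPM) and Tlr2 (3.198 CPM) did.

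The diet effect on Capn11 differed with and without NaKtide by a log2 value of 5.16 in the interaction test. The control diet libraries without NaKtide, which are outside the diet comparison with NaKtide, carried this difference.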

How the results depend on the processing

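For the diet with NaKtide, the count of called genes and of called list members was 0 under DESeq2 size factors, no filter on low counts, the replicate block, the 2 compared groups alone, limma voom, each library left out, and both libraries 5 left out. With DESeq2's Wald test each count was 1, Hoxc4 (log2 fold change 21.7), which had 12.5 CPM in western diet NaKtide replicate 2 and 0 CPM in the other 9 libraries. The interaction count was 17 with DESeq2 and 1 to 5 with a library left out, reaching 5 without control diet replicate 5. The region difference count was 5 with DESeq2 and 0 to 7 with a library left out, reaching 7 without hippocampus western diet NaKtide replicate 2 and 1 without its replicate 6. The replicate block left 0 diet calls (362 genes at an unadjusted p under 0.05) and changed no other call. Same-numbered libraries had correlations of -0.49 to 0.40, and 1 of 5 western diet NaKtide libraries correlated best with its own number. Log2 fold changes of uncalled genes changed sign as follows, and the cause was not tested. Under the block Atp1b1 was -0.0404 and Zic1 0.0907. Under limma voom Atp1b2 was -0.0843, Zic1 1.34, Slc6a5 -0.0692 and Rps13 -0.0652. Without both libraries 5, Pcp2 was 3.84, Cbln1 0.21, Cbln3 2.31, Zic1 0.82 and Car8 0.63. With 1 library left out, values ran from -0.0850 to 0.22 for Atp1b1, -0.0827 to 0.27 for Atp1b2, -4.07 to 3.54 for Pcp2, -2.26 to 0.20 for Cbln1, -5.77 to 2.06 for Cbln3, -1.32 to 1.31 for Zic1, -3.33 to 0.54 for Car8, -1.11 to 7.10 for Slc6a5 and -0.00106 to 0.47 for Rps13. None of the 15 named genes changed sign. At 5 libraries per group and 5832016 to 9013464 counts per library, a gene with an interval beyond 2-fold remains undetermined.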
